A study of Nicotiana tabacum and Solanum tuberosum subsp. andigenum and Nicotiana sylvestris with 28 samples.

Results

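PSBR encodes a small subunit of photosystem II, and its cDNA clones on the potato array were followed across photoperiod, phytochrome B level and 4 plant types (potato, 2 Nicotiana tabacum lines and N. sylvestris). The members were all spots to which the platform annotation gives the gene symbol PSBR and no other. There were 12 such spots, printed as 2 spots of each of 6 clones, out of 10684 clones with a value and 815 clones with 1 gene symbol in the series. All 6 clones carried 1 gene identifier, and each had its own pair of sequence accessions. Each clone is called by the number of its first spot. Clones 133928, 136668, 142024 and 150316 had a value on all 28 arrays. Clone 145143 had a value on 9 arrays, all of them potato, and clone 132715 on 5 potato and 2 Nicotiana arrays.

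Photosystem II is the thylakoid complex of chloroplasts that uses light to split water and passes the electrons on. PsbR is a nuclear-encoded protein on the lumen side of this complex. In Arabidopsis it is needed for stable binding of PsbP, one of the extrinsic proteins that assist water splitting. A potato gene for this subunit, ST-LS1, is known for expression in green leaves and stems and for induction by light. Phytochrome B is the red light photoreceptor through which potato plants sense day length for tuberization.

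Leaf RNA was compared on 2-colour potato cDNA arrays, with the moved plants and the plants kept in their original photoperiod on the same array. Plants of Solanum tuberosum subsp. andigena, of an N. tabacum line with the Maryland Mammoth allele in the Hicks background (MM) and of N. tabacum cv Hicks were moved to short days (SD) for 15 or 1 days or kept in long days (LD), and N. sylvestris plants were moved from SD to LD for 15 or 1 days or kept in SD. A further set compared antisense PHYB potato (α-PHYB, 1 transgenic line, titled Ri_PHYB) with wild type (WT), both grown in LD. Each of these 9 sets had 3 biological replicates, and replicate 1 of potato at 15 days was repeated with exchanged dyes. All plants were 56 days old at harvest and were grown at 22 °C. LD had 16 h of light at 80 µE and SD had 8 h of light at 160 µE, so day length and irradiance cannot be told apart in these ratios. Harvest was at the same number of hours after light on in both photoperiods, while LD leaves were in light and SD leaves in darkness, so lit leaves were set against dark leaves. Nicotiana RNA was hybridized to potato probes. The files hold ratios and no levels, so leaf markers could not be used to check the tissue.

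Values are log2 ratios, given as LD/SD and, for the phytochrome B set, as WT/α-PHYB. The plants kept in LD, or the WT plants, are the numerator, so that a negative value means a higher signal in the plants moved to SD, or in α-PHYB. In N. sylvestris the moved plants are in LD, and a negative value means a higher signal in the plants kept in SD. The direction of the deposited ratios was not stated. For the potato sets it was taken from the dyes in the labels and from 4 other genes (F3H, GBSS, STUGE51 and PR1B) whose signs in the study are known. For MM, Hicks and N. sylvestris it rests on the dyes alone. The exchanged potato array, with LD in Cy5, ran with its partner as deposited (r = 0.784) and was not turned. The N. sylvestris arrays, also with LD in Cy5, were turned to LD/SD by the dye rule, which the exchanged array did not follow. If they had been deposited as the exchanged array was, their ratios below would have the opposite sign. In N. sylvestris the sample titles also name the opposite move to the channel descriptions and the study's methods. The titles were not followed, and if they were right, every N. sylvestris ratio below would have the opposite sign. A clone passed where limma gave p of 0.05 or less and a Benjamini-Hochberg adjusted p of 0.1 or less over all clones with a value in every replicate. Values were present for 8922 to 9887 clones per potato array, 5169 to 7333 per MM or Hicks array and 3602 to 4873 per N. sylvestris array. The PSBR spots of a clone were close, with a median distance of 0.03 to 0.14 on the log2 scale.

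After 15 days in SD, the PSBR clones of potato did not move as one. Clone 133928 was higher in plants moved to SD and clone 145143 was higher in plants kept in LD, while clones 136668, 142024 and 150316 did not pass. Thus 2 of the 5 clones tested passed, against 35.0% of all 8781 clones tested in this comparison. Clone 133928 had log2 LD/SD ratios of 0.12, -0.90 and -1.18 in replicates 1, 2 and 3. Replicates 2 and 3 were thus far below 0 and replicate 1 was slightly above it. The mean was -0.66 ± 0.68 (SD, n = 3), a 1.58-fold higher signal in SD, with a standard error of 0.25 and an adjusted p of 0.0988 by limma. The call lay close to the limit and was lost without replicate 2 (-0.53) or replicate 3 (-0.39), where 20.2% and 26.4% of all clones passed. Replicate 1 is the mean of its exchanged array (0.52) and its other array (-0.29). Without the exchanged array the mean was -0.79, with an adjusted p of 0.0218 by limma, and 3164 of 8524 clones passed.

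Clone 145143 had ratios of 0.66, 0.61 and 0.10 in replicates 1, 2 and 3 at 15 days, all above 0. Its mean was 0.46 ± 0.31 (SD, n = 3), a signal 1.37-fold lower in plants moved to SD than in plants kept in LD, with an adjusted p of 0.0663 by limma. Without replicate 1 (0.35) or replicate 2 (0.38) it did not pass, while 15.8% and 20.2% of all clones passed in those fits. Clones 136668, 142024 and 150316 had means of 0.18 ± 0.43, -0.01 ± 0.67 and 0.09 ± 0.67 (SD, n = 3 each). None of the 3 passed, and their 95% intervals reached from -0.24 to 0.60, from -0.58 to 0.57 and from -0.50 to 0.67. Clone 132715 was measured in 2 replicates, at 0.48 and 0.71, and was not tested.

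After 1 day in SD, where no array had exchanged dyes, clone 133928 was again higher in the moved plants. Its ratios were -0.47, -1.18 and -0.99 in replicates 1, 2 and 3. All 3 lay below 0. Over all clones, 58.0% had the same sign in every replicate of this set. The mean of -0.88 ± 0.37 (SD, n = 3) is a 1.84-fold higher signal in SD and had an adjusted p of 0.0104 by limma. Of the 4 clones tested it was the 1 that passed, against 34.4% of 8854 clones. Without replicate 2 its mean was -0.73 and it did not pass, while 10.4% of all clones passed in that fit.

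Clones 136668, 142024 and 150316 had means of 0.07 ± 0.45, -0.16 ± 0.41 and -0.12 ± 0.44 after 1 day (SD, n = 3 each), and none passed. Replicate 1 of each was above 0 (0.59, 0.32 and 0.38) and replicates 2 and 3 were below 0. Without replicate 1, clone 142024 had a mean of -0.40 and passed, as did 29.9% of all clones in that fit. Clone 145143 was measured in replicates 1 and 2 only, at 1.14 and 0.99, and clone 132715 in the same replicates at 0.88 and 0.36. These 4 values were all on the side of plants kept in LD, and were not tested because a value was required in every replicate.

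**Figure D1:**
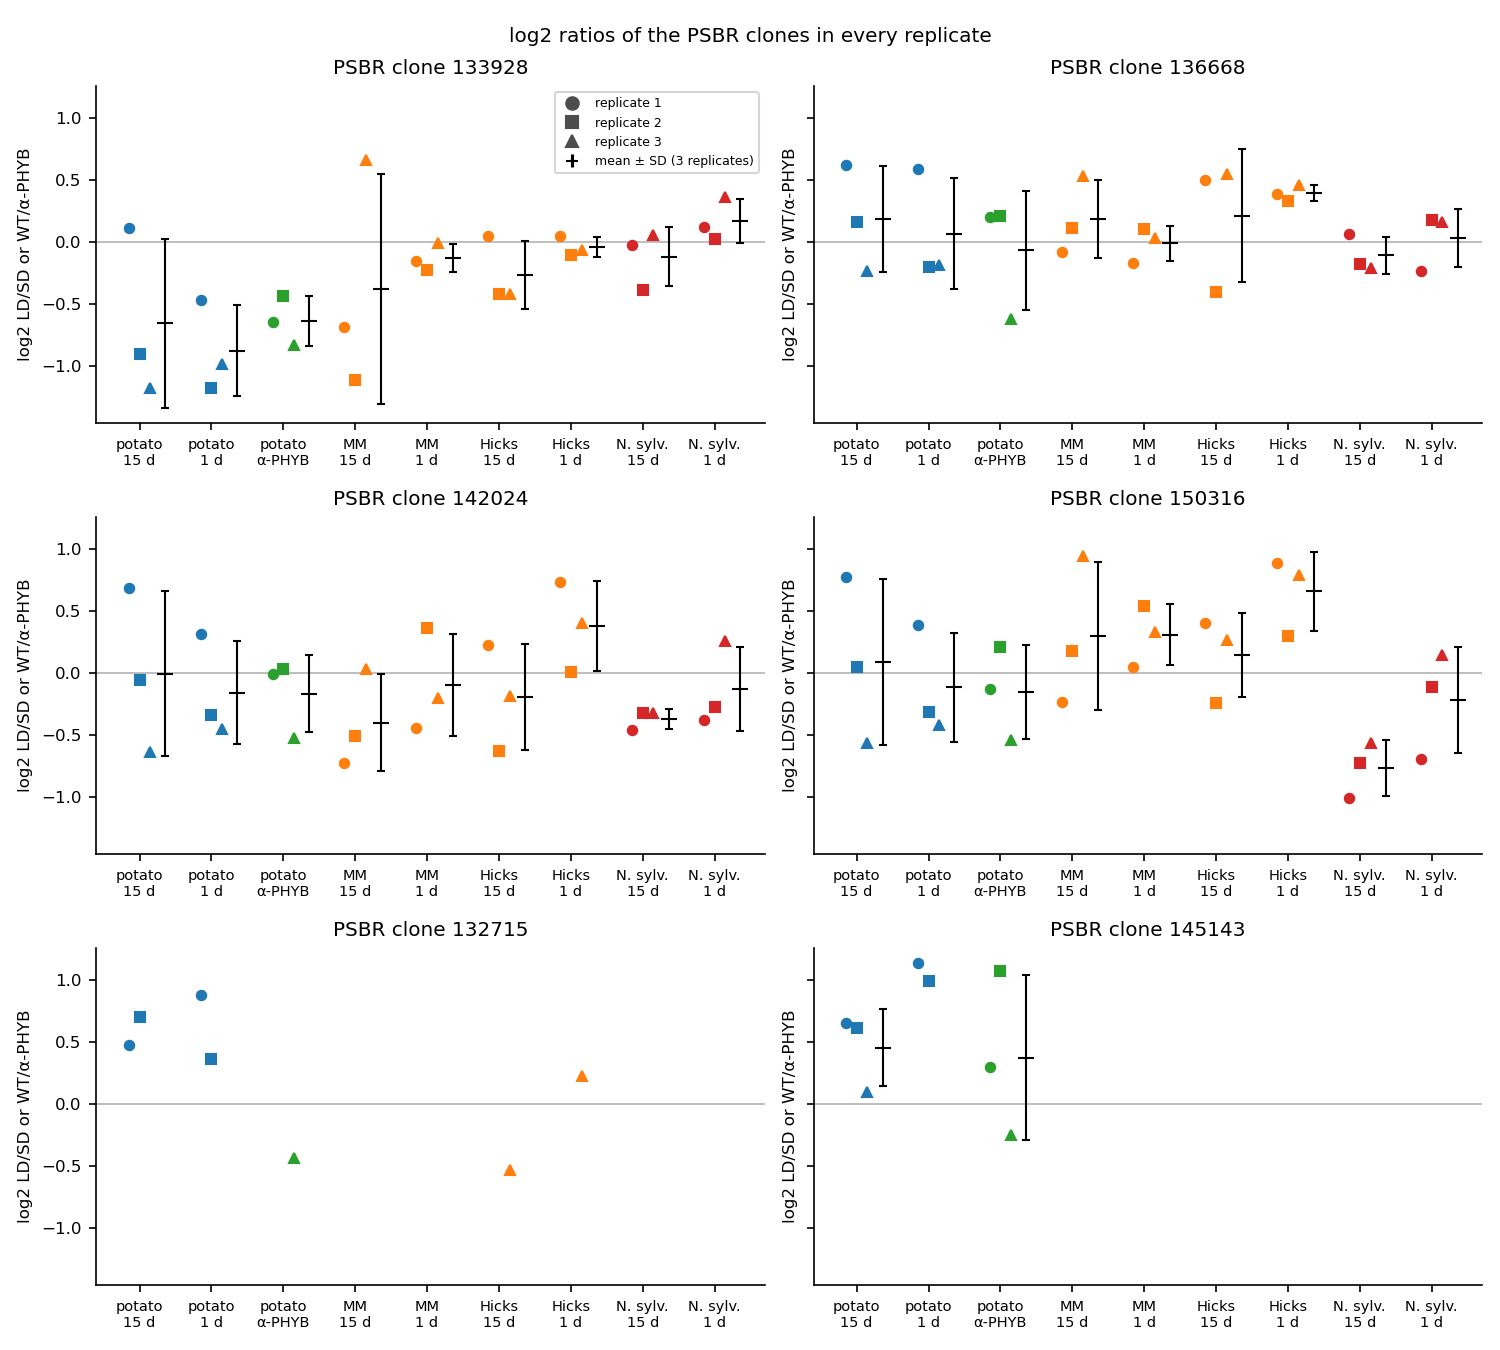
log2 ratios (LD/SD, or WT/α-PHYB for the phytochrome B set) of the 6 PSBR clones, 1 panel per clone; points are replicates and black bars the mean ± SD where 3 replicates had a value. Clone 133928 lies below 0 in 8 of the 9 potato replicates, clone 150316 lies below 0 in all 3 N. sylvestris replicates at 15 days and above 0 in all 3 Hicks replicates at 1 day.

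With all replicates and no replicate block, no PSBR clone passed the test of 15 days against 1 day in any of the 4 plant types. Clone 150316 in N. sylvestris passed with a replicate block, and also without replicate 1. In potato, the 15-day minus 1-day difference lay between 0.12 and 0.22 for the 4 clones measured on all arrays. The interval for clone 133928 reached from -0.53 to 0.97. None of the 4 clones passed and none had an unadjusted p of 0.05 or less, with limma or the methods' t-test. Of all clones, 0.202% passed with limma and 0 with the methods' t-test.

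With both days pooled, clone 133928 had a mean of -0.77 ± 0.51 (SD, n = 6), a 1.70-fold higher signal in plants moved to SD. It was below 0 in 5 of 6 replicates, with an adjusted p of 0.00324 by limma. It was 1 of the 4 clones tested, against 55.2% of 8426 clones that passed. Same-numbered replicates of the 2 days deviated together, so the 6 are not fully independent. With the replicate number as a block the adjusted p was 0.0139. Clones 136668, 142024 and 150316 had pooled means of 0.13 ± 0.40, -0.08 ± 0.50 and -0.02 ± 0.52 (SD, n = 6 each), none of which passed. Replicate 1 held these means up. Without it, clones 142024 (-0.37) and 150316 (-0.31) passed as higher in plants moved to SD, and 50.6% of all clones passed in that fit. The mean of clone 133928 in the pooled set was in the lowest 3.56% of all clone means.

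The spread of each clone over the potato replicates was shared by the other clones. The SD of the 6 ratios was 0.40 to 0.52 in the 4 clones, while the differences of most pairs of clones on the same replicate had SDs of 0.15 to 0.21. The closest pair, clones 142024 and 150316, had an SD of 0.03, or 0.09 with the usual dyes only. Replicate 1 was the highest replicate in all 4 clones on both days. The order of the clones within a replicate was therefore more uniform than their level. Clone 133928 was the lowest of the 4 in 6 of 6 potato replicates and clone 136668 the highest in 5 of 6.

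The within-replicate difference of clone 133928 minus clone 136668 was -0.89 ± 0.21 on the log2 scale (mean ± SD, n = 6). Against clones 142024 and 150316 it was -0.69 ± 0.15 and -0.75 ± 0.16. Clone 142024 minus clone 150316 was -0.07 ± 0.03. Each of these 4 differences had the same sign in 6 of 6 replicates, with an exact two-sided sign-flip permutation p of 0.0312, the smallest that 6 replicates allow, and 0.0469 after Benjamini-Hochberg adjustment over the 6 pairs of clones. Clone 136668 minus clones 142024 and 150316 was 0.21 ± 0.16 and 0.14 ± 0.17, in 5 of 6 replicates each, with exact p of 0.0625 and 0.125. Because the replicate numbers pair the days, these p-values can be too small. The 6 pairs of clones were compared after the order of the clones was known. These differences also carry the difference of the clones' dye terms, measured on the dye-exchange pair.

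**Figure D2:**
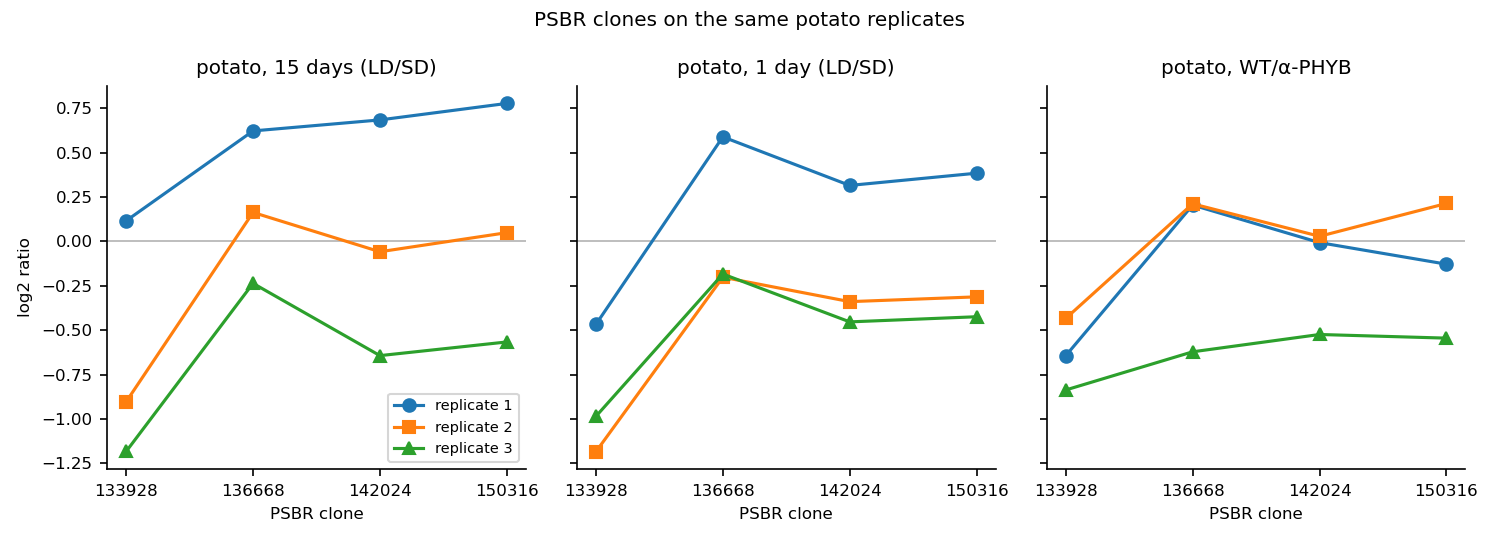
log2 ratio (y axis) of the 4 PSBR clones measured on all arrays (x axis) in potato at 15 days, at 1 day and in the phytochrome B set; each line joins the clones of 1 replicate. The lines run nearly parallel in the LD/SD panels, and clone 133928 is the lowest point of all 9 lines.

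The dye-exchange pair gave a direct reading of how far each clone depends on the dye. It measured the RNA of replicate 1 at 15 days with LD in Cy5 and again with LD in Cy3. Clone 133928 had a log2 LD/SD ratio of 0.52 with the exchanged dyes and -0.29 with the usual dyes, so its sign turned. This difference divided by 2, the dye term, was -0.40, larger in size than that of 96.4% of the 8388 clones with one. Clone 136668 had 0.54 with the exchanged dyes and 0.71 with the usual dyes, and clone 142024 had 0.67 and 0.70. Both were thus close on the 2 arrays. Clone 150316 had 1.01 and 0.55, and clone 145143 had 0.80 and 0.51, above 0 on both arrays. Clone 132715 had 0.48 with the exchanged dyes and no value with the usual dyes.

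All other potato arrays had LD or WT in Cy3, the dye order in which clone 133928 read lower. With the dye term subtracted, its mean was -0.39 at 15 days and did not pass. At 1 day it was -0.48 (adjusted p of 0.0749) and in the pooled set -0.43 (adjusted p of 0.0185), both still passing by limma. The dye term rests on 1 pair of arrays, and these adjusted p-values do not carry its error.

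The differences between clones also moved with the dye term. With it subtracted, clone 133928 minus clones 136668, 142024 and 150316 in potato was -0.49 ± 0.10, -0.34 ± 0.18 and -0.61 ± 0.16 (SD, n = 6), below 0 in 6 of 6 replicates each. These 3 kept an adjusted p of 0.0469 by the exact sign-flip permutation test. The dye term was taken as fixed in every replicate, so these p-values and SDs do not carry its error. Clone 133928 was still the lowest of the 4 in 6 of 6 replicates. Clone 136668 minus clone 150316 turned to -0.12 ± 0.08, with an exact sign-flip permutation p of 0.0625 and an adjusted p of 0.075. Clone 150316 was then the highest clone in 5 of 6 replicates. The place of clone 136668 at the top of the order therefore depended on the dye term.

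**Figure D3:**
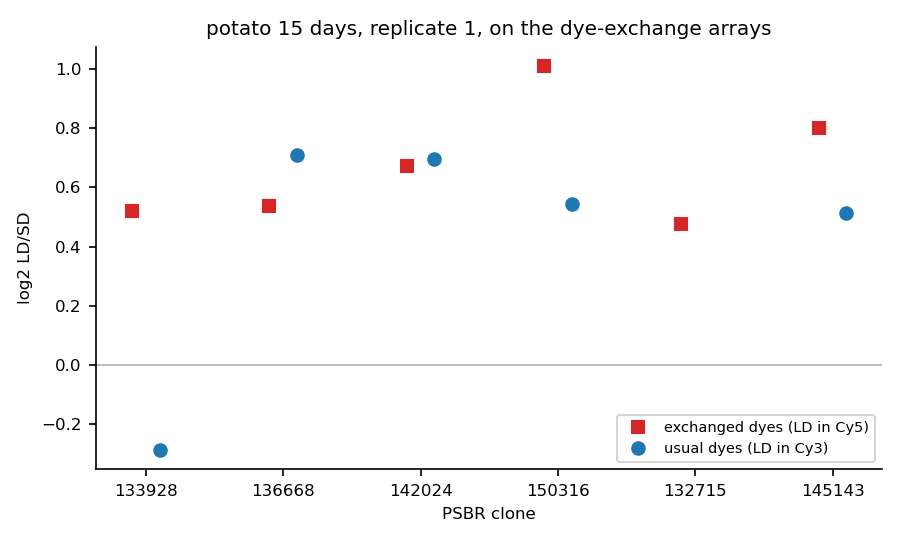
log2 LD/SD ratio (y axis) of each PSBR clone (x axis) in replicate 1 of potato at 15 days, with exchanged dyes (squares, LD in Cy5) and usual dyes (circles, LD in Cy3). Clone 133928 lies at 0.52 and -0.29 on the 2 arrays, and the other 4 clones with both values lie above 0 on both.

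In α-PHYB plants kept in LD, clone 133928 was higher than in WT, and the other clones were not separated from 0. The log2 WT/α-PHYB ratios of clone 133928 were -0.64, -0.43 and -0.84 in replicates 1, 2 and 3, all below 0, and 50.2% of all clones had the same sign in these 3 replicates. The mean was -0.64 ± 0.20 (SD, n = 3), a 1.56-fold higher signal in α-PHYB, with an adjusted p of 0.0568 by limma. Thus 1 of the 5 PSBR clones tested passed, against 14.0% of all 8463 clones. WT was in Cy3 on all 3 arrays, and with the dye term subtracted the mean was -0.23 and did not pass. Without replicate 1 or replicate 2 no clone on the array passed, 133928 included.

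Clones 136668, 142024 and 150316 had WT/α-PHYB means of -0.07 ± 0.48, -0.17 ± 0.31 and -0.15 ± 0.38 (SD, n = 3 each). Replicate 3 was the lowest of the 3 replicates in each of these clones, between -0.62 and -0.52. Clone 145143 had ratios of 0.30, 1.08 and -0.25 in replicates 1, 2 and 3, with a mean of 0.37 ± 0.67, and did not pass. Without replicate 3, also its lowest, its mean of 0.69 passed, as did 35.9% of all clones in that fit. Clone 133928 was again the lowest of the 4 clones in 3 of 3 replicates, with differences to clones 136668, 142024 and 150316 of -0.57 ± 0.32, -0.47 ± 0.16 and -0.49 ± 0.18 (SD). With the dye term subtracted they were -0.08 ± 0.32, -0.06 ± 0.16 and -0.31 ± 0.18, and clone 133928 was the lowest in 2 of 3 replicates. The first 2 of these means were thus smaller than their SDs. With 3 replicates the differences were not tested.

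In Nicotiana, only clones 136668 and 150316 in Hicks at 1 day passed the test against 0 with each day apart. In MM, the tabacum line that flowers in SD only, none of the 4 clones passed with limma or the methods' t-test at either day, and none had an unadjusted p of 0.05 or less. In all clones, 3.42% passed at 15 days, 0.102% at 1 day and 22.6% with both days pooled, where again none of the 4 PSBR clones passed or had such a p. These shares are by limma, and with the methods' t-test 0 clones passed at either day. Without replicate 2, 17.2% of all clones passed at 15 days and 29.8% at 1 day by limma, and no PSBR clone did. Clone 133928 in MM at 15 days had ratios of -0.69, -1.12 and 0.67, the widest range of any PSBR clone in the 9 sets. Clone 150316 had a mean of 0.30 in MM at 15 days and 0.31 at 1 day, with SDs of 0.60 and 0.25 (n = 3 each), above 0 in 5 of 6 replicates. Clone 142024 had means of -0.40 ± 0.39 and -0.09 ± 0.41 at 15 days and 1 day. Clone 136668 had means of 0.19 ± 0.32 and -0.01 ± 0.14 at 15 days and 1 day.

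In Hicks, which flowers irrespective of photoperiod, clones 150316 and 136668 were lower in plants moved to SD after 1 day. Clone 150316 had log2 LD/SD ratios of 0.89, 0.30 and 0.79 in replicates 1, 2 and 3. The mean was 0.66 ± 0.32 (SD, n = 3), a signal 1.58-fold lower in plants moved to SD, with an adjusted p of 0.0306 by limma. Clone 136668 had ratios of 0.39, 0.33 and 0.46, all above 0. They are means of 2 spots that differed, at 0.08 and 0.70 in replicate 1 and 0.19 and 0.48 in replicate 2. In this set 53.4% of clones had the same sign in every replicate. The mean of clone 136668, 0.39 ± 0.06, had an adjusted p of 0.0797 by limma. With its first spots alone the mean was 0.24 and did not pass. Clone 142024 had 0.74, 0.01 and 0.41, a mean of 0.38 ± 0.36 that did not pass (adjusted p of 0.154). Clone 133928 had a mean of -0.04 ± 0.08, near 0 in all 3 replicates. Thus 2 of 4 clones passed, against 23.7% of 4706 clones. Neither call remained with the methods' t-test after Benjamini-Hochberg adjustment, by which 3 of 4706 clones passed. Clone 136668 did not pass when any 1 replicate was left out (means of 0.36 to 0.42), and clone 150316 not without replicate 3 (0.59). Clone 142024 passed without replicate 2 (0.57). Without replicate 1, 2 or 3, in turn, 15.2%, 15.7% and 12.8% of all clones passed.

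At 15 days no PSBR clone passed in Hicks, with limma or the methods' t-test, and 0 had an unadjusted p of 0.05 or less. Of all clones, 0.270% passed with limma and 0 with the methods' t-test. Clone 150316 had a mean of 0.14 ± 0.34 and clone 136668 of 0.21 ± 0.54 (SD, n = 3 each). Replicate 2 was below 0 in all 4 clones at 15 days, between -0.63 and -0.24. The 15-day minus 1-day difference was -0.52 for clone 150316, with a 95% interval from -1.09 to 0.06. It did not pass (adjusted p of 0.303 by limma), so the 2 days are not shown to differ. With both days pooled, 0 of 4 clones passed and 1, clone 150316 (0.40, adjusted p of 0.157), had an unadjusted p of 0.05 or less with limma and 0 with the methods' t-test, against 9.81% of 3914 clones that passed with limma. Without replicate 2, clones 136668 (0.47) and 150316 (0.59) passed pooled, as did 8.03% of all clones in that fit.

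In N. sylvestris, which flowers in LD only, no PSBR clone passed at 15 days, and the mean farthest from 0 was that of clone 150316. Its ratios were -1.01, -0.73 and -0.57 in replicates 1, 2 and 3, all below 0, and 53.3% of clones had the same sign in these replicates. The mean, on the side of plants kept in SD, was -0.77 ± 0.23 (SD, n = 3) with an unadjusted p of 0.0089 and an adjusted p of 0.118 by limma. Clone 142024 was also below 0 in 3 of 3 replicates, with a mean of -0.37 ± 0.08 and an adjusted p of 0.297. The means of clones 133928 and 136668 were -0.12 ± 0.24 and -0.11 ± 0.15. Thus 0 of 4 clones passed, and 1 had an unadjusted p of 0.05 or less with limma and 2 with the methods' t-test. Of 3028 clones, 4.29% passed with limma and 0 with the methods' t-test.

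At 1 day, the N. sylvestris ratios of clone 150316 were -0.69, -0.11 and 0.14, on both sides of 0. None of the 4 clones had an unadjusted p of 0.05 or less with limma or the methods' t-test, and 0 of 3004 clones passed with either test. Without replicate 1, 51.7% of all clones passed with limma, and no PSBR clone did. With both days pooled 0 of 4 clones passed, 1 had an unadjusted p of 0.05 or less with either test, and 8.47% of 2314 clones passed with limma. The 15-day minus 1-day difference of clone 150316 was -0.55 and did not pass (adjusted p of 0.665). The replicate numbers pair the days in N. sylvestris, and with the replicate number as a block this difference had an adjusted p of 0.0561 and passed. In that blocked fit 34.6% of 2314 clones passed, against 0 without the block. Without replicate 1, which was the lowest on both days, the difference was -0.66 and passed without the block, as did 22.5% of 2479 clones.

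The ratios of 2 clones differed between N. sylvestris and other plant types. For clone 133928 the potato minus N. sylvestris difference at 1 day was -1.05 (95% interval -1.54 to -0.55, adjusted p of 0.0114 by limma). Without replicate 2 (-0.97) or replicate 3 (-0.90) of all plant types it did not pass, and 3.13% and 1.38% of all clones did. With all replicates it was 1 of 4 clones that passed, against 14.3% of 2453 clones. Its ratios at 1 day lay between -1.18 and -0.47 in potato and between 0.02 and 0.37 in N. sylvestris, without overlap, as in 29.8% of clones. At 15 days the difference of -0.54 did not pass, and with both days pooled it was -0.79 (adjusted p of 0.0123 by limma, with 43.3% of 2101 clones passing). Clone 133928 had a dye term of -0.40 in potato, and LD was in Cy3 in potato at 1 day and in Cy5 in N. sylvestris. Dye and plant type therefore cannot be told apart in these differences, and the dye term was not subtracted from them. The differences of clone 133928 between potato and MM (-0.75) and between potato and Hicks (-0.84) at 1 day did not pass, where 1.43% and 1.35% of clones did. At 15 days no PSBR clone had an unadjusted p of 0.05 or less in potato minus MM or minus Hicks with limma or the methods' t-test, and 4.66% and 2.72% of clones passed with limma. With both days pooled, 1 clone in each of these comparisons had such a p and none passed, against 15.8% and 8.81% of clones.

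The mean log2 LD/SD ratio of clone 150316 was higher in potato than in N. sylvestris at 15 days by 0.86 (adjusted p of 0.0941 by limma), and higher in MM than in N. sylvestris by 1.07 (adjusted p of 0.0712). These were 1 of 4 clones in each comparison, against 34.5% and 18.8% of 2724 clones. At 1 day it was higher in Hicks than in N. sylvestris by 0.88 (adjusted p of 0.0904), 1 of 4 clones against 13.4% of 2453. With both days pooled the MM and Hicks differences of clone 150316 were 0.80 and 0.90 (adjusted p of 0.0183 and 0.0122, with 35.3% and 28.3% of clones passing). No PSBR clone passed for Hicks at 15 days (1 unadjusted p of 0.05 or less with limma and 0 with the methods' t-test, 0% of clones passing) or for MM at 1 day (0 with either test, 10.9% of clones passing). The 3 single-day calls of clone 150316 were each lost when any 1 replicate number was left out. The differences were then 0.39 to 1.28 for potato, 0.84 to 1.21 for MM and 0.53 to 1.12 for Hicks minus N. sylvestris. Without replicate 1, 2 or 3, in turn, 7.28%, 30.4% and 6.66% of all clones passed for potato. For MM it was 0.0693%, 9.73% and 0%, and for Hicks 12%, 3.28% and 2.46%. LD was in Cy5 in N. sylvestris and in Cy3 in the other plant types, except for the exchanged array averaged into replicate 1 of potato at 15 days, so dye and plant type cannot be told apart in these differences. Clone 150316 had a dye term of -0.23 in potato.

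With the sign of N. sylvestris turned, as its sample titles would have it, the differences of clone 133928 at 1 day and pooled kept their call, and those of clone 150316 did not. For clone 133928, potato minus N. sylvestris was then -0.71 at 1 day (adjusted p of 0.0916 by limma, with 10.8% of clones passing) and -0.74 with both days pooled (adjusted p of 0.0251, with 32% of clones passing). For clone 150316, potato and MM minus N. sylvestris at 15 days became -0.68 and -0.47, with 19.1% and 22.2% of clones passing. Hicks minus N. sylvestris at 1 day became 0.44, with 1.96% of clones passing. Pooled, its MM and Hicks differences became -0.19 and -0.09, with 27.1% and 18.6% of clones passing. None of these 5 values of clone 150316 passed, so its calls against N. sylvestris depend on the direction taken from the channel descriptions.

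The F-test over the 4 plant types passed for clone 133928 at 1 day (adjusted p of 0.0388, but 0.366 without replicate 2 and 0.617 without replicate 3) and for no clone at 15 days, where clone 150316 alone had an unadjusted p of 0.05 or less (p of 0.0407, adjusted p of 0.137, limma). Over all clones, 12.9% passed at 1 day and 22.1% at 15 days. Without replicate 2 or replicate 3, 0.641% and 0.153% of all clones passed at 1 day. With both days pooled, clones 133928 (adjusted p of 0.0506) and 150316 (0.0204) passed, against 44.4% of 2101 clones. With the sign of N. sylvestris turned, clone 133928 did not pass at 1 day (0.145) and passed pooled (0.0798), and clone 150316 did not pass pooled (0.362). Of all clones, 5.22% then passed at 1 day and 34.6% pooled. MM and Hicks, which share a genetic background apart from the Maryland Mammoth allele, had no PSBR clone that passed the test of their difference at either day or pooled by limma. None of the 4 clones had an unadjusted p of 0.05 or less in these comparisons, and 0% of all clones passed.

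**Figure D4:**
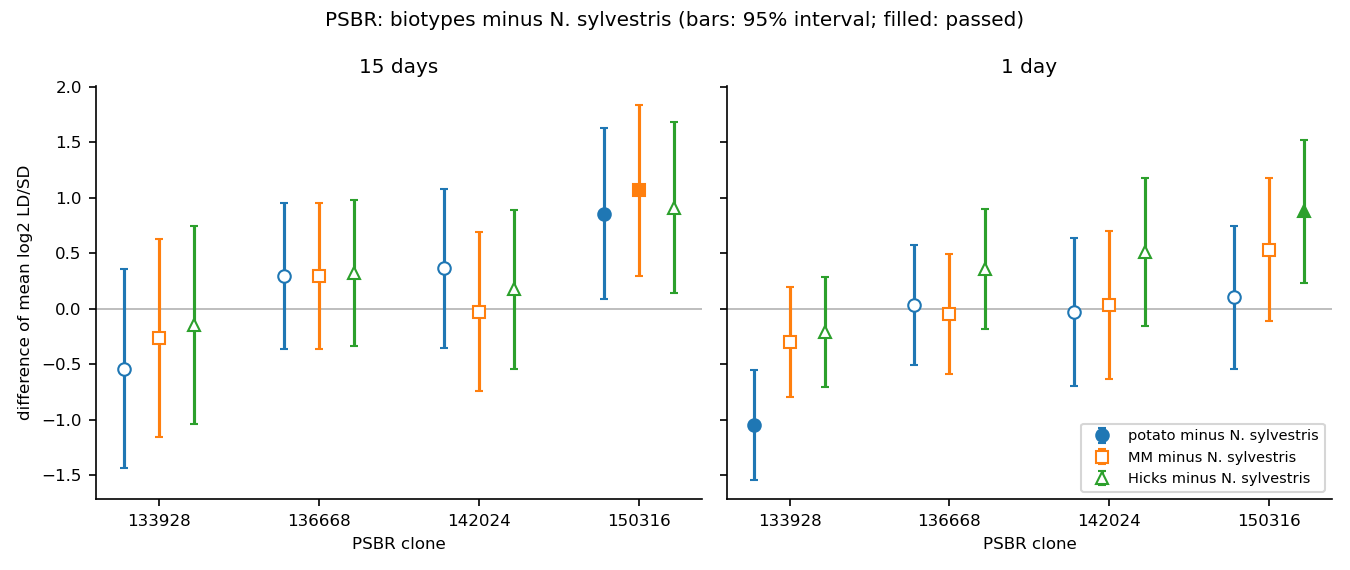
Difference of mean log2 LD/SD (y axis) between potato, MM or Hicks and N. sylvestris for the 4 PSBR clones measured on all arrays (x axis), at 15 days and 1 day; bars are 95% intervals and filled symbols passed. Clone 133928 in potato at 1 day lies at -1.05, and clone 150316 has all 3 differences above 0 at both days, from 0.10 to 1.07.

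The order of the clones within a replicate was not the same in all plant types. Clone 133928 was the lowest of the 4 in 5 of 6 Hicks replicates, in 2 of 6 MM replicates and in 0 of 6 N. sylvestris replicates. Clone 150316 was the highest in 5 of 6 MM replicates and 3 of 6 Hicks replicates, and the lowest in 5 of 6 N. sylvestris replicates, where it would be the highest in these 5 with the sign turned. Clone 133928 would then be the lowest in 3 of 6 N. sylvestris replicates. Clone 142024 was the lowest in 4 of 6 MM replicates. The sparse clone 132715 had 1 value in Hicks at each day, -0.53 at 15 days and 0.23 at 1 day.

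In size, none of the 38 means of PSBR clones tested against 0 in the 9 sets reached 1 on the log2 scale, the 2-fold limit that the study's methods set. Clone 145143 at 1 day in potato, measured in 2 replicates and not among the 38, averaged 1.07. The largest of the 38 was that of clone 133928 in potato at 1 day. Leaving out N. sylvestris, the order of its mean LD/SD ratios, from low to high, ran potato at 1 day (-0.88), potato at 15 days (-0.66), MM at 15 days (-0.38), Hicks at 15 days (-0.27), MM at 1 day (-0.13) and Hicks at 1 day (-0.04). Each neighbouring pair in this order was closer than the SD of at least 1 of the 2 sets. For clone 150316 the order ran potato at 1 day (-0.12), potato at 15 days (0.09), Hicks at 15 days (0.14), MM at 15 days (0.30), MM at 1 day (0.31) and Hicks at 1 day (0.66). In this clone only the last step, to Hicks at 1 day, exceeded the SDs of both neighbours. In N. sylvestris clone 133928 had -0.12 at 15 days and 0.17 at 1 day, and clone 150316 had -0.77 and -0.22, or the opposite signs if the titles were right.

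The genes with the most similar pattern were taken among 490 clones with 1 gene symbol and a value in at least 24 of the 27 replicates, by Pearson r over those replicates. This is a description, and the points share arrays, dyes and plant types. The highest r was 0.71 for clone 133928 (LOC102577613), 0.57 for clone 136668 (LOC102577637), 0.60 for clone 142024 and 0.73 for clone 150316 (both LOC102601295). The next 2 genes were LOC102577554 and LOC102577515 (both 0.61) for clone 133928, LOC102581180 (0.56) and LOC102577927 (0.53) for clone 136668, LOC102577927 (0.57) and LOC102585328 (0.53) for clone 142024, and LOC102577553 and LOC102598404 (both 0.64) for clone 150316. Clones 142024 and 150316 thus shared their first gene and clones 136668 and 142024 shared 1 of their 3 genes, whereas clone 133928 shared none with the other PSBR clones. With the sign of N. sylvestris turned, the first gene of clone 133928 was LOC102590287 (0.66), which was also among the 3 genes of clones 142024 (0.56) and 150316 (0.71), so that this last contrast depended on that sign.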

How the data were processed

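Leaf RNA was hybridized to 28 2-colour potato cDNA arrays (27 biological replicates, 1 of them repeated with the dyes exchanged). The authors normalized spot intensities by LOWESS, and the deposited table holds log2 ratios without intensities or depths, so that the number of arrays limits the precision. The submitters' processing notes name limma. The members and lists were chosen with earlier results of these data known.

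Both spots of a clone were averaged, ratios of N. sylvestris were turned to LD/SD, and the exchanged array, which correlated with its partner as deposited (r = 0.784), was averaged with it. Sample titles of N. sylvestris give the opposite move to the channel descriptions and the study's methods, and the titles were not followed. Means, differences and F-tests were fitted with limma 3.58.1 (R 4.3.3) over all clones, and the scripts were tested on simulated data. Alternatives were the methods' t-test, centring, scaling, missing values, single spots, the exchanged array, a dye term, the day, the replicate number as a block, the turned sign of N. sylvestris and each replicate left out.

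The deviations of replicates with 1 number were alike on both days in potato (r of 0.410, 0.140 and 0.460), MM (0.541, 0.753 and 0.514) and N. sylvestris (0.856, 0.716 and 0.604). In Hicks they were alike in replicates 1 and 3 (0.307 and 0.320) and not in replicate 2 (-0.069). The pairing thus comes from the data and not from the labels, and p-values over both days can be too small. No other gene symbol on the array matched a list of photosynthesis symbols, and most clones have no name in the tables used here, so other photosynthesis genes were not analysed here. All PSBR clones were named, with the 3 clones of highest r to each.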

Additional observations from a re-analysis of the deposited data

Results flagged for a closer look

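In 2 of 18 sets of replicates of a PSBR clone (1 plant type, both days), 1 replicate lay far from the others. Chance gives about 1 in 20 such sets. In Hicks, clone 136668 had -0.41 in replicate 2 at 15 days, while the other 5 replicates lay between 0.33 and 0.55. In N. sylvestris, clone 142024 had 0.26 in replicate 3 at 1 day, while the other 5 lay between -0.46 and -0.28.

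The remaining values of note are differences between plant types that passed by limma. For clone 133928, potato minus N. sylvestris was -1.05 at 1 day and -0.79 with both days pooled, and the F-test over the 4 plant types had an adjusted p of 0.0388 at 1 day and 0.0506 pooled. For clone 150316, potato minus N. sylvestris was 0.86 and MM minus N. sylvestris 1.07 at 15 days, Hicks minus N. sylvestris was 0.88 at 1 day, and pooled the MM and Hicks differences were 0.80 and 0.90, with an F-test adjusted p of 0.0204. All of these set N. sylvestris, with LD in Cy5, against plants with LD in Cy3, except for the exchanged array averaged into replicate 1 of potato at 15 days, so plant type and dye cannot be told apart. The calls of clone 150316 were lost with the sign of N. sylvestris turned.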

How the results depend on the processing

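Of 1542 values of 165 PSBR results under the alternatives, 1460 kept their call, 52 lost a call, 25 gained one and 5, called in the text or under the alternative, changed sign. The pooled potato result of clone 133928 kept its call under all alternatives run. The cause of the changes was not tested. The random block, the block between plant types, the dye term in potato LD/SD and in clone pairs, single arrays of the dye pair and the turned sign of N. sylvestris were chosen after seeing the data. With the sign of N. sylvestris turned, clone 150316 had -0.68 (potato) and -0.47 (MM) at 15 days, 0.44 (Hicks) at 1 day, and -0.19 (MM) and -0.094 (Hicks) pooled, each minus N. sylvestris and none called, and the F-test adjusted p was 0.145 for clone 133928 at 1 day and 0.362 for clone 150316 pooled.

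With the methods' t-test, the calls of clones 133928 (-0.66) and 145143 (0.46) in potato at 15 days, 133928 at 1 day (-0.88), 133928 in α-PHYB (-0.64), 136668 (0.39) and 150316 (0.66) in Hicks at 1 day, and 150316 for potato (0.86) and MM (1.07) at 15 days and Hicks (0.88) at 1 day minus N. sylvestris were lost. By that t-test, 133 of 8781 clones passed in potato at 15 days and 72 of 8854 at 1 day. In Hicks at 1 day 3 of 4706 passed, and in α-PHYB 0 of 8463. Few clones could thus keep a call in these sets. Minus N. sylvestris, 753 (potato) and 339 (MM) of 2724 clones passed at 15 days, and 301 of 2453 (Hicks) at 1 day. First spots alone gave -0.61 for clone 133928 in potato at 15 days, 0.24 for 136668 in Hicks at 1 day, and 0.80 and 0.86 for 150316 in potato and Hicks minus N. sylvestris, and second spots alone 0.41 for 145143 at 15 days, all not called. The dye term, subtracted, left -0.39 for clone 133928 at 15 days and -0.23 in α-PHYB, not called. Centred arrays gave 0.84 and 0.85 for clone 150316 in potato (15 days) and Hicks (1 day) minus N. sylvestris, and without the exchanged array the potato value was 0.78, none called. Scaled arrays lost MM minus N. sylvestris (0.99) and gained clone 150316 in N. sylvestris at 15 days (-0.71) and clone 133928 in potato minus MM (-0.87) and minus Hicks (-0.93) at 1 day.

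With a value required in 2 replicates only, clone 133928 (-0.66) at 15 days and clone 150316 in potato minus N. sylvestris (0.86) were not called, and clones 132715 (0.59, 0.62 and 0.61) and 145143 (1.07 at 1 day, 0.70 pooled) were called at 15 days, 1 day or pooled in potato, on 2 replicates of at least 1 day. With the replicate number as a block, the day difference of clone 150316 in N. sylvestris (-0.55) was called and Hicks minus N. sylvestris at 1 day (0.88) was not. In Hicks pooled over days, clone 150316 (0.40) was called with a random block or a day term. In Hicks the deviations of the 2 days were alike in replicates 1 and 3 (r of 0.307 and 0.320) and not in replicate 2 (-0.069). For clone pairs the threshold was an adjusted exact permutation p of 0.1 or less, without a limit on the unadjusted p. With 1 array of the dye pair, the clone pairs 136668 minus 142024 (0.20, exchanged dyes) and 142024 minus 150316 (-0.027, usual dyes) were no longer past this threshold, and 136668 minus 150316 (0.19, usual dyes) was. With the dye term subtracted, 136668 minus 150316 was -0.12 and past this threshold, with an unadjusted exact permutation p of 0.0625.

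Leaving out 1 replicate at a time gave -1.04 to -0.39 for clone 133928 and 0.35 to 0.64 for clone 145143 in potato at 15 days, -1.08 to -0.73 for 133928 and -0.40 to -0.012 for 142024 at 1 day, -0.37 to 0.15 for 142024 and -0.31 to 0.22 for 150316 pooled, and -0.74 to -0.54 for 133928 and 0.023 to 0.69 for 145143 in α-PHYB. For clone 132715 (0.59, 0.62 and 0.61 at 15 days, 1 day and pooled) and clone 145143 at 1 day (1.07), only replicate 3, in which they had no value, could be left out, so these values could not move. Clone 145143 pooled had 0.85 without replicate 3. In Hicks at 1 day the ranges were 0.36 to 0.42 (136668), 0.21 to 0.57 (142024) and 0.54 to 0.84 (150316), and pooled 0.20 to 0.47 (136668) and 0.28 to 0.59 (150316). Without replicate 2 in Hicks, clone 142024 at 1 day (0.57) and clones 136668 (0.47) and 150316 (0.59) pooled gained a call. In these fits 15.7% of all clones passed at 1 day and 8.03% pooled. The day difference of 150316 in N. sylvestris ranged from -0.66 to -0.47. Against N. sylvestris, clone 150316 ranged from 0.39 to 1.28 (potato), 0.84 to 1.21 (MM) and 0.53 to 1.12 (Hicks), clone 133928 in potato from -1.28 to -0.90, and its F-test adjusted p at 1 day from 0.0467 to 0.617.

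The share of clones that passed also moved. Over the alternatives, the number passing ran from 133 to 3164 in potato at 15 days (3070 in the text's fit), 72 to 3142 at 1 day (3045), 3 to 1190 in Hicks at 1 day (1115) and 0 to 3096 in α-PHYB (1182). At 1 day it ran from 0 to 1486 in MM (5) and from 0 to 1648 in N. sylvestris (0). The highest numbers came without replicate 2 in MM and without replicate 1 in N. sylvestris.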
